A study of Mus musculus with 6 samples.

Results

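Integrins and the other receptors by which a stem cell holds on to its bone marrow niche were followed in LT-HSC, the long-term haematopoietic stem cells of the mouse, which can rebuild blood after a transplant. The set comprised 40 genes, chosen by name with earlier results of these data known. It held 15 integrin alpha subunits, 8 integrin beta subunits and 17 other receptors, ligands and adhesion molecules. All 40 were found among the 22180 genes that have a probe set of their own on the array, and 39 of them passed the filter on dim genes. The samples were 3 pools of control animals and 3 of animals that expressed NPMc+, a mutant form of nucleophosmin, a protein normally found mostly in the nucleolus. All were C57/BL6 bone marrow LT-HSC sorted 4 months post transplantation, and an array held the RNA of 1 such pool. The labels do not say how the mutant was expressed, in which cells, how long it had been present or which surface markers set the sort gate, and they give no age or sex of the animals.

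Integrins are receptors made of 1 alpha and 1 beta chain, and the pairing sets the ligand. Chains joined to beta 1 bind fibronectin, laminins, collagens and VCAM-1, chains joined to beta 2 are found on leukocytes, and beta 7 pairs with alpha 4 or alpha E. In bone marrow, alpha 4 beta 1 and CXCR4 are known for the homing and retention of stem cells, angiopoietin-1 and its receptor TIE2 for their quiescence, and CD44 and PSGL-1 for their contact with hyaluronan and selectins.

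The values are log2 expression, so that a difference of 1 is a doubling. Same-numbered control and NPMc+ arrays were tied: for every probe set, the mean of the 2 arrays of a pair was the same in pairs 1, 2 and 3 within 0.001 log2 units. Any replicate effect had thus been removed before deposit, which leaves 3 freely varying numbers a gene, its pair differences. For each gene the spread is therefore the same in both groups, and the groups are free of overlap exactly when all 3 pair differences have 1 sign. All differences below are NPMc+ minus control. Array medians lay between 3.90 and 3.99. The arrays also differed in other ways: Xist, which is expressed from the inactive X and so in female cells, differed by -5.44 in pair 1, -5.39 in pair 2 and 0.48 in pair 3. The 3 measured Y chromosome genes differed most in pair 1: Eif2s3y differed by 5.49, 0.36 and -0.79, Uty by 4.68, 0.93 and 0.35, and Kdm5d by 3.48, 1.29 and -0.67. Of 13 measured LT-HSC markers, limma put 7 higher and 0 lower in NPMc+ (unadjusted p under 0.05), with a median difference of 0.50. Over all genes tested, 5.95% were higher and 3.02% lower at that threshold. A difference between groups does not check which cells were sorted. The mean level of these LT-HSC markers was 5.57 to 5.72 on control arrays and 6.15 to 6.30 on NPMc+ arrays. Markers of cells that such a sort should leave out also had signal, and moved: at that threshold NPMc+ was lower for 10 of 15 neutrophil and monocyte markers, 7 of 9 B cell markers, 6 of 7 erythroid markers and 4 of 11 T and NK cell markers, and higher for 7 of 9 megakaryocyte markers. In the opposite direction, 1 T and NK cell marker was higher, Nkg7, and 1 megakaryocyte marker lower, Gp6; for the other 3 lists there was none. Because these are bulk samples, a change in the share of a cell type and a change in RNA per cell cannot be told apart.

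No member passed an adjusted threshold. In limma with the pair as a block, 0 of the 39 members tested had an adjusted p under 0.05, as had 0 of all 16635 genes tested (0% of genes). At an unadjusted p under 0.05, 4 members were higher in NPMc+, namely Itga6, Cd93, Pecam1 and Angpt1, or 10.3% of the 39, against 5.95% of all genes. Emcn alone was lower, 2.56% against 3.02% of all genes. The same 5 members were those that differed at least 1.5-fold, where 4.72% of all genes were higher and 2.87% lower by that much. With 12 members the 3 pairs had 1 sign, 9 higher and 3 lower; that is 30.8%, close to the 30.2% of all genes, of which 17.4% were higher and 12.8% lower. The median difference of the members was 0.02, and that of all genes 0.03. Without the block, limma put Itga6, Cd93, Pecam1 and Angpt1 past an adjusted p of 0.05, but that fit counts the tied arrays as free and calls 4.98% of all genes. In the 3 fits that leave out 1 pair each, the same 4 genes again had an unadjusted p under 0.05, as had, in the higher direction, 5.61% of all genes without pair 1, 4% without pair 2 and 4.62% without pair 3.

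**Figure D1:**
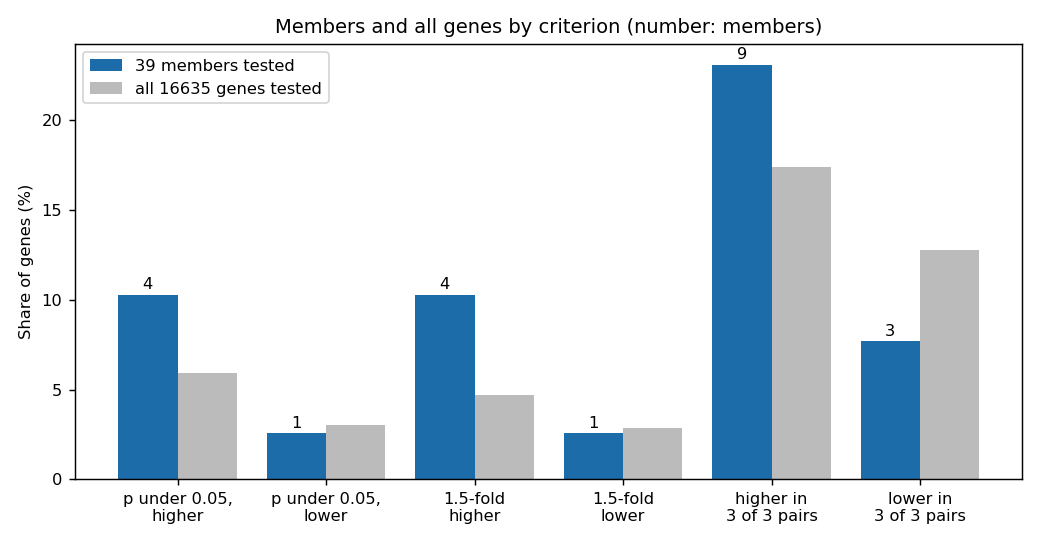
Bars give the share of genes, in percent, that met each of 6 criteria among the 39 members tested (blue, with the number of members above) and among all 16635 genes tested (grey). In the higher direction 4 members, or 10.3%, had an unadjusted p under 0.05 in limma, against 5.95% of all genes. In the lower direction 1 member, or 2.56%, had it, against 3.02%. The members were chosen with earlier results of these data known, so the shares describe this set only.

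**Figure D2:**
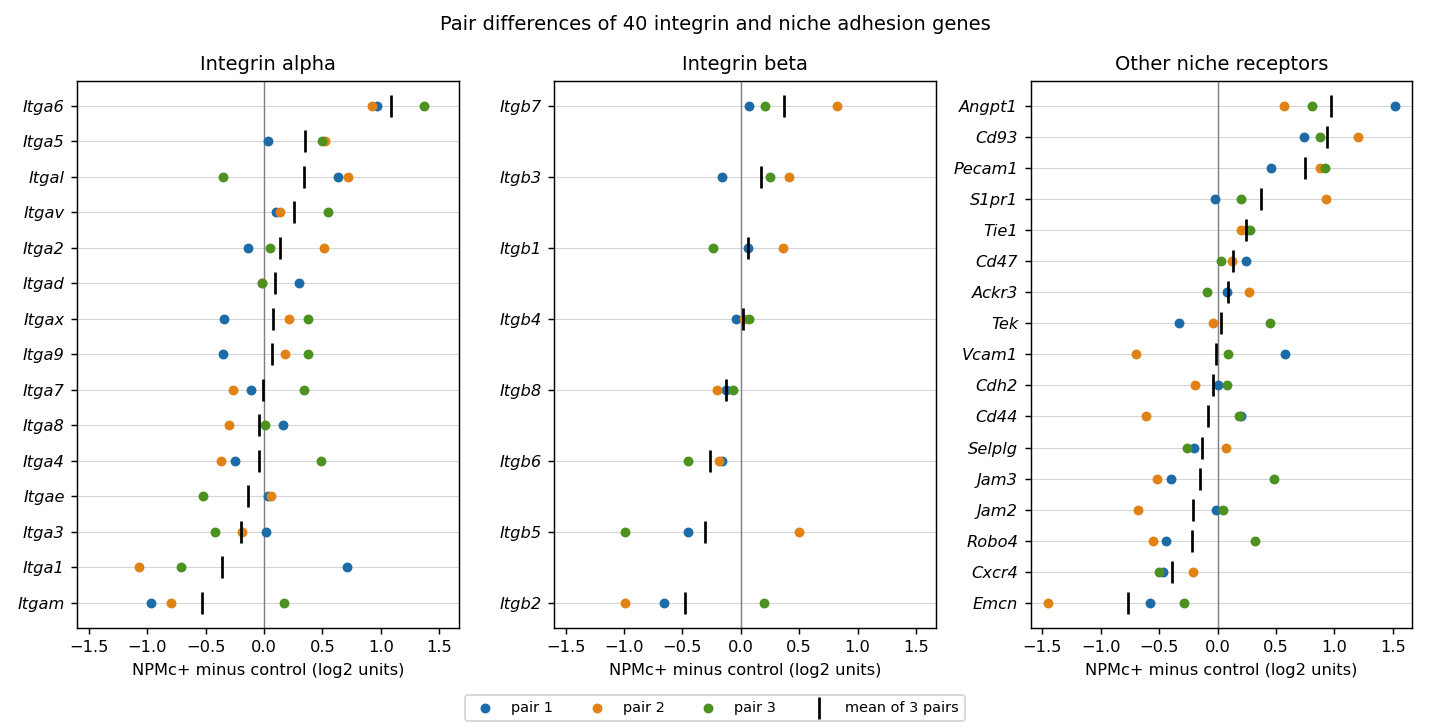
Each point is the NPMc+ minus control difference of 1 pair, in log2 units, for 40 genes in 3 groups; the black bar is the mean of the 3 pairs. Itga6, Angpt1, Cd93 and Pecam1 lie to the right of 0 in all pairs and Emcn and Cxcr4 to the left, while the points of most other genes straddle 0.

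Among the 15 alpha chains, all tested, Itga6 was the 1 gene with an unadjusted p under 0.05 in limma. Over all genes 8.97% fell under that threshold in either direction, so this count does not stand out. Itga6 encodes integrin alpha 6, a laminin receptor chain also used as a surface marker of stem and progenitor cells (CD49f), and was read by probe set 17371800. Its values were 6.95, 6.97 and 6.75 in control pools 1 to 3 and 7.92, 7.89 and 8.12 in NPMc+ pools 1 to 3. Every NPMc+ pool was thus above every control pool, and the difference was of like size in each pair. It was 1.09 ± 0.19 log2 units (SE; 95% interval 0.63 to 1.55), or 2.13-fold, with an unadjusted p of 0.000918 and an adjusted p of 0.269 in limma (0.0127 without the block). Leaving out any 1 pair gave 0.95 to 1.17. Itga6 is also expressed by megakaryocytes and platelets. The 10 listed megakaryocyte markers, 9 of them measured, had a mean level of 5.22 to 5.39 on control arrays and 6.03 to 6.20 on NPMc+ arrays, with pair medians of 0.91, 0.88 and 0.78. Their part in the Itga6 difference was not tested. Itga2b, the megakaryocyte alpha chain CD41, which is among those markers and outside the set, was higher by 1.55, 1.16 and 1.28 in the 3 pairs.

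The fibronectin and vitronectin receptor chains Itga5 and Itgav were higher in each pair, by less. Itga5 had 6.05, 5.80 and 5.81 in control and 6.08, 6.33 and 6.32 in NPMc+. The groups were separate, but only just in pair 1, and the difference was 0.35 ± 0.19 (SE; 95% interval -0.11 to 0.82; unadjusted p 0.116, adjusted p 0.657 in limma). For Itgav the pair differences were 0.10, 0.14 and 0.55. A second probe set of Itgav, not used for the test, gave -0.04, 0.24 and 0.45, so the sign in pair 1 depended on the probe set.

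Itga4, the alpha 4 chain that binds VCAM-1 and fibronectin and is needed for homing to marrow, had 8.52, 8.58 and 8.15 in control and 8.27, 8.21 and 8.64 in NPMc+. The groups overlapped: NPMc+ was lower in pairs 1 and 2, by 0.25 and 0.37, and higher in pair 3. The difference was -0.04 ± 0.23, and its 95% interval, -0.59 to 0.51, leaves room for a change of up to about 1.5-fold either way. The collagen receptor chains Itga1 and Itga2 differed by -0.36 ± 0.35 and 0.14 ± 0.20 (SE), with pairs on both sides of 0. Itga1 had the widest pair differences of the 40 genes, 0.71, -1.07 and -0.71. For Itga3, Itga7, Itga8 and Itga9, chains better known from epithelium, muscle and other solid tissues, the differences were -0.20, -0.01, -0.04 and 0.07, and for Itgae, the alpha E chain of mucosal T cells, -0.14. The group means from Itga3 to Itgae ran from 3.03 to 3.95, at or below the array medians of 3.90 to 3.99. Genes this dim say little about a change or its absence. None of the chains from Itga4 to Itgae named here had 1 sign in all pairs.

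The leukocyte integrins of the beta 2 family did not all differ in the same direction. Itgam, the alpha M chain (CD11b) of neutrophils and monocytes, had 8.81, 8.72 and 8.23 in control and 7.83, 7.92 and 8.41 in NPMc+. It was lower in pairs 1 and 2, by 0.97 and 0.80, and 0.17 higher in pair 3. Its common chain Itgb2 (CD18) had 8.66, 8.82 and 8.23 in control and 8.0, 7.83 and 8.43 in NPMc+. Itgb2 thus shared the sign of each pair with Itgam, lower in pairs 1 and 2 and 0.20 higher in pair 3. Itgal, the alpha L chain (CD11a) of LFA-1, which is found on lymphocytes and most other leukocytes, went the other way: 6.81, 6.76 and 7.30 in control and 7.44, 7.49 and 6.95 in NPMc+. Over the 3 pairs the differences were -0.53 ± 0.26 (SE) for Itgam, -0.48 ± 0.26 for Itgb2 and 0.34 ± 0.26 for Itgal, with adjusted p-values of 0.621, 0.651 and 0.767 in limma. Without pair 3 they were -0.89, -0.82 and 0.68, with unadjusted p-values of 0.00835, 0.0131 and 0.0272 in limma. In that fit 2.93% of all genes fell under 0.05 in the lower and 4.62% in the higher direction. Pair 3 had the opposite sign in all 3 genes, so leaving it out enlarges the differences. Without pair 1 they were -0.31, -0.39 and 0.19 (unadjusted p 0.37, 0.312 and 0.597 in limma). Without pair 2 they were -0.4, -0.23 and 0.14 (unadjusted p 0.26, 0.447 and 0.646 in limma). The remaining partners of CD18, Itgax (CD11c of dendritic cells) and Itgad, differed by 0.08 ± 0.21 and 0.09 ± 0.18. Their group means of 3.29 to 3.54 lay below the array medians of 3.90 to 3.99, so these genes were dim.

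Neutrophil and monocyte markers had a pair pattern like that of Itgam and Itgb2. All 15 listed genes were measured. The 10 lower ones stood against 0 higher at an unadjusted p under 0.05 in limma. Over all genes 3.02% were lower and 5.95% higher. The pair medians of the list were -1.41, -1.25 and -0.04. The mean level of these markers ranged from 9.37 to 10.05 on control arrays and from 8.63 to 9.31 on NPMc+ arrays. Of the 3 with the highest mean, S100a8 differed by -0.45, -0.88 and 0.02 in the 3 pairs, S100a9 by -0.91, -0.91 and 0.07, and Ly6c2 by 0.26, -0.31 and -0.17. The part of these cells in the Itgam and Itgb2 differences was not tested. Xist also differed in pairs 1 and 2 and little in pair 3, and its part was not tested either.

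**Figure D3:**
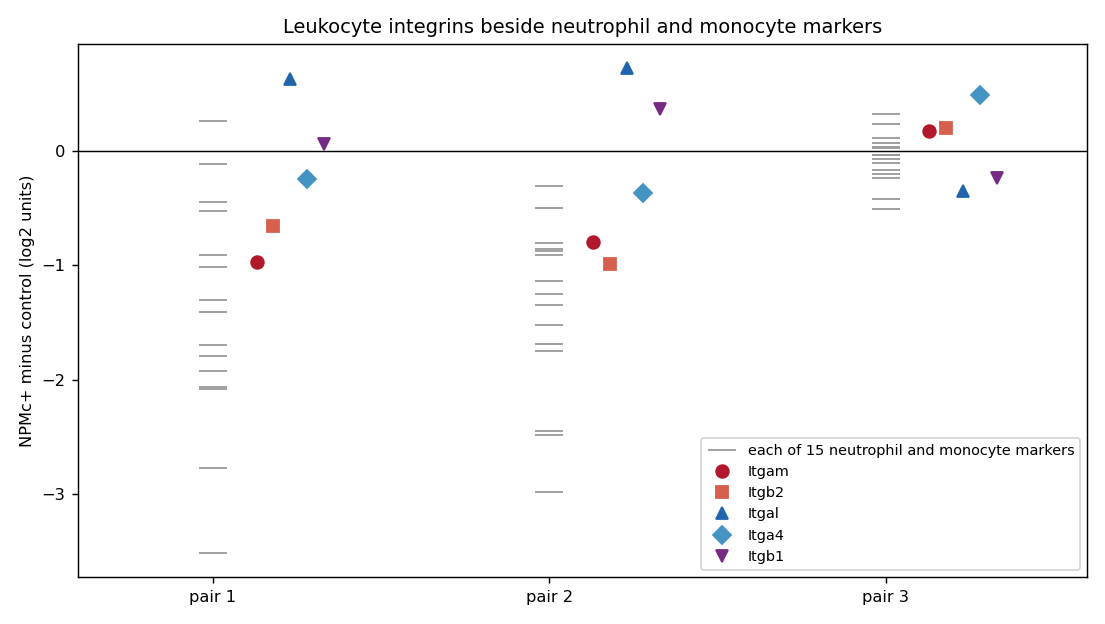
For each of the 3 pairs, grey dashes give the NPMc+ minus control difference, in log2 units, of each of 15 neutrophil and monocyte markers, and coloured symbols that of 5 integrin genes. Itgam and Itgb2 lie at -0.97 and -0.66 in pair 1, at -0.80 and -0.99 in pair 2 and at 0.17 and 0.20 in pair 3, while Itgal is above 0 in pairs 1 and 2 and at -0.35 in pair 3.

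Of the 8 beta chains, 7 were tested and 0 had an unadjusted p under 0.05 in limma. Over all genes 8.97% fell under that threshold in either direction, so with so few chains this 0 does not set them apart. Itgb6, an epithelial chain, was too dim to be tested. Itgb1, the common chain of most matrix receptors, had 8.32, 8.17 and 8.47 in control and 8.38, 8.53 and 8.23 in NPMc+. The groups overlapped, and the difference of 0.06 ± 0.20 (SE; 95% interval -0.42 to 0.53) has an interval that stays within 1.5-fold either way. Its partner Itga6 was thus higher by 1.09 beside an Itgb1 difference of 0.06; the 2 differences were not tested against each other. Itgb7, which joins alpha 4 on lymphocytes and progenitors to bind MAdCAM-1, was higher in each pair, by 0.07, 0.82 and 0.21 (0.37 ± 0.21, adjusted p 0.679 in limma). Itgb3, the partner of alpha V and of CD41, differed by -0.16, 0.41 and 0.25, while CD41 itself was higher by more than 1 in every pair. Itgb5, a further partner of alpha V, differed by -0.45, 0.50 and -0.99, with a sign that turned in pair 2. Itgb8 was lower in each pair, by 0.13, 0.20 and 0.07, Itgb6 by 0.16, 0.19 and 0.45, and Itgb4, the hemidesmosome chain that pairs with alpha 6, differed by 0.02 ± 0.17. Itgb8, Itgb6 and Itgb4 were dim, with group means of 2.58 to 3.88, below the array medians of 3.90 to 3.99.

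Among the 17 other genes were those of the angiopoietin system, whose differences were not tested against each other. Angpt1, the ligand of TIE2, made by stem cells, megakaryocytes and stroma, was read by probe set 17316780, with 8.78, 9.25 and 9.13 in control and 10.30, 9.82 and 9.94 in NPMc+. All NPMc+ pools were above all control pools, most in pair 1. The difference was 0.97 ± 0.23 log2 units (SE; 95% interval 0.41 to 1.53), or 1.96-fold, with an unadjusted p of 0.00509 and an adjusted p of 0.376 in limma (0.0396 without the block). A second probe set of Angpt1 was far dimmer, with a mean of 3.36 against 9.54, below the array medians of 3.90 to 3.99. It was also higher in each pair, by 0.83, 0.56 and 0.69, but a signal that low carries little weight. Without pair 1 the difference of the probe set used was 0.69. Tek, which encodes TIE2, had 4.23, 4.08 and 3.83 in control and 3.89, 4.04 and 4.29 in NPMc+. These groups overlapped, with a difference of 0.03 ± 0.21 (95% interval -0.49 to 0.54). Tek was dim, with group means of 4.05 in control and 4.07 in NPMc+, close to the array medians. It thus says little about a change or its absence. Tie1, the related receptor without a known strong ligand of its own, had the most even pair differences of the 40 genes, 0.25, 0.20 and 0.28, but at 0.24 ± 0.17 its adjusted p was 0.746 in limma.

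Genes shared by endothelium and stem cells went in both directions. Cd93, a C-type lectin-like receptor of early progenitors and endothelium read by probe set 17392572, had 6.71, 6.48 and 6.64 in control and 7.45, 7.68 and 7.52 in NPMc+. Pecam1 (CD31), a homophilic adhesion molecule of endothelium, platelets and stem cells, had 7.15, 6.94 and 6.92 in control and 7.61, 7.82 and 7.84 in NPMc+. For both genes all NPMc+ pools were above all control pools. Cd93 was 1.91-fold higher, by 0.94 ± 0.19 (SE; 95% interval 0.48 to 1.39), with an unadjusted p of 0.00201 and an adjusted p of 0.340 in limma (0.0146 without the block). Pecam1 was 1.69-fold higher, by 0.75 ± 0.19 (95% interval 0.29 to 1.21), with an unadjusted p of 0.00643 and an adjusted p of 0.401 (0.0227 without the block).

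Emcn, the sialomucin endomucin of sinusoidal endothelium and primitive stem cells, was the member with the lowest difference. Its values were 4.66, 5.10 and 4.52 in control and 4.09, 3.65 and 4.23 in NPMc+, so that all NPMc+ pools were below all control pools. In NPMc+ the signal was dim: the mean of 3.99 lay at the array medians of 3.90 to 3.99, and pool 2 lay below them. Pair 2 carried most of the distance, with pair differences of -0.58, -1.45 and -0.29. The mean difference was -0.77 ± 0.26 (95% interval -1.39 to -0.15), a 1.71-fold lower value, with an unadjusted p of 0.0225 and an adjusted p of 0.482 in limma. Without pair 1 the unadjusted p was 0.0511, and without pair 2 it was 0.103, with a difference of -0.43. Robo4, a guidance receptor of endothelium and stem cells that supports their lodging in marrow, differed by -0.44, -0.55 and 0.32, and the junctional adhesion molecule genes Jam2 and Jam3 by -0.21 ± 0.22 and -0.15 ± 0.25. Jam2 was dim, with group means of 3.79 in control and 3.58 in NPMc+. Of 12 endothelial markers, all measured and 11 tested, none reached an unadjusted p of 0.05 in limma in either direction, where 8.97% of all genes did. With so few genes this does not set the list apart. Their median difference was 0.01, and their mean level was 3.56 to 3.67 on control arrays and 3.63 to 3.74 on NPMc+ arrays. That level lay below the array medians of 3.90 to 3.99. The list as a whole was thus dim and says little about a change or its absence. Cdh5, the VE-cadherin gene, named here because it defines endothelium, differed by -0.02 ± 0.18. It was dim too, with group means of 3.64 in control and 3.61 in NPMc+.

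Cxcr4, the receptor of the niche chemokine CXCL12, was lower in each pair without passing the test. It had 10.25, 10.12 and 10.26 in control and 9.78, 9.91 and 9.76 in NPMc+. All NPMc+ pools lay below all control pools, and the difference was -0.39 ± 0.18 (SE; 95% interval -0.83 to 0.04), a 1.31-fold lower value, with an unadjusted p of 0.0680 and an adjusted p of 0.600 in limma. With an intensity trend in limma the unadjusted p was 0.0300, a threshold of 0.05 that 3.39% of all genes met in the lower direction. Some markers of other leukocytes that also carry CXCR4 were lower too: the 9 B cell markers tested had pair medians of -1.32, -1.21 and -1.84, with a mean level of 5.64 to 5.80 on control arrays and 4.44 to 4.60 on NPMc+ arrays, and their part in the Cxcr4 difference was not tested. Ackr3, the second receptor of CXCL12, which takes the chemokine up without G protein signalling, differed by 0.09 ± 0.18.

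**Figure D4:**
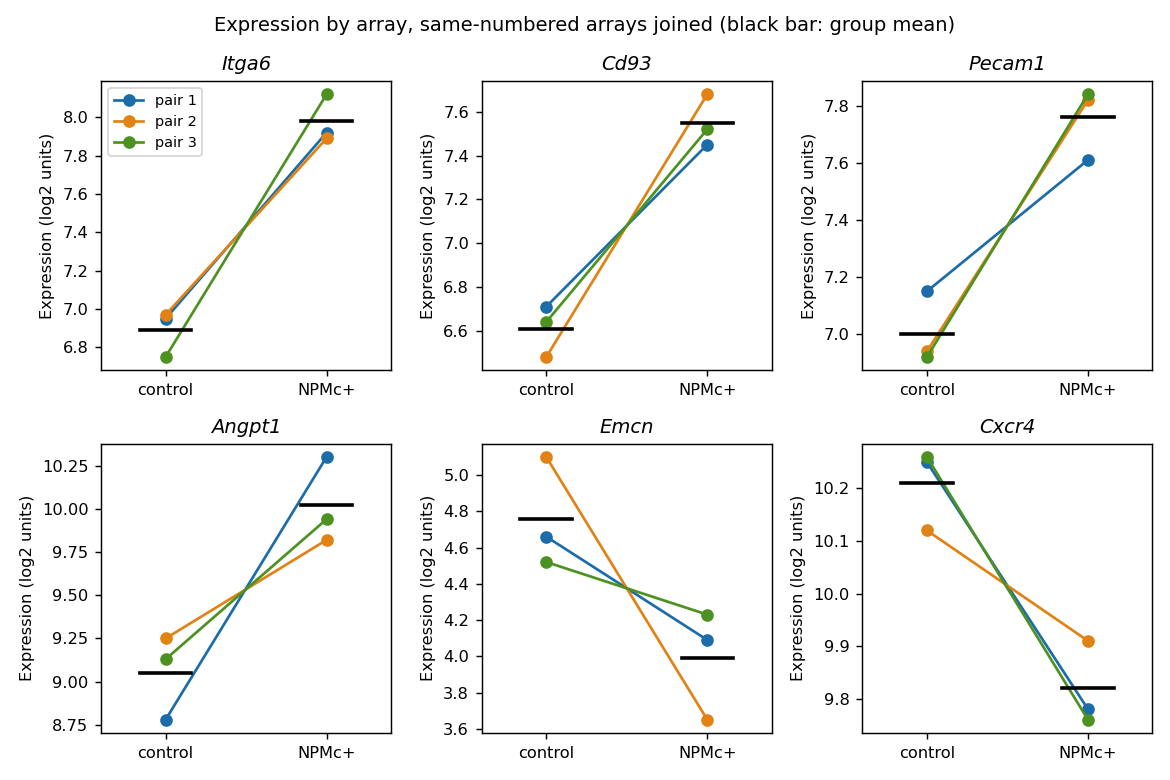
Expression, in log2 units, of 6 genes on the 6 arrays, with same-numbered arrays joined by a line and black bars at the group means of 3 arrays. The lines of Itga6, Cd93, Pecam1 and Angpt1 all go up from control to NPMc+ and those of Emcn and Cxcr4 all go down; the lines of a gene cross at 1 point because the deposited values have a common mean in every pair, and each panel has its own axis range.

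Cd44 and Selplg, genes of rolling and matrix contact, did not separate the groups. Cd44, the hyaluronan receptor, had 8.63, 9.04 and 8.64 in control and 8.83, 8.43 and 8.83 in NPMc+. It was higher in pairs 1 and 3 and lower in pair 2, with a difference of -0.08 ± 0.23 (SE; 95% interval -0.62 to 0.47). Selplg, the selectin ligand PSGL-1, differed by -0.13 ± 0.18, and its second probe set by -0.04. Vcam1, the ligand of alpha 4 beta 1, differed by 0.58, -0.70 and 0.09, and Cdh2, N-cadherin, by -0.04 ± 0.18. Cdh2 was dim, with group means of 3.08 in control and 3.04 in NPMc+. S1pr1, the receptor that guides exit from marrow toward blood, differed by -0.02, 0.93 and 0.20, so that the mean of 0.37 ± 0.24 came mostly from pair 2. Cd47, the signal that protects cells from phagocytosis, was higher in each pair, by 0.24, 0.12 and 0.03 (0.13 ± 0.18, adjusted p 0.879 in limma). Its groups were thus separate, but only just in pair 3.

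Promoter sequence was available for 23 of the 40 genes, taken from RefSeq (GRCm38.p6). It is shown for Emcn, the member with the lowest difference, for Cxcr4, the homing receptor that was lower in each pair, and for Itgam, the beta 2 partner that was lower in pairs 1 and 2. Each window runs 5′ to 3′ on the gene's strand from 250 to 21 bases before the start of transcription. Capitals mark matches on either strand to GAGGAA, a form of ETS factor site, or to TATAAA, the box bound by TBP. Of ETS sites only GAGGAA and GGAAGT were searched for, so other forms are not marked. The Emcn window is chr3:137340828-137341057 on the plus strand, the Cxcr4 window chr1:128592320-128592549 on the minus strand and the Itgam window chr7:128062390-128062619 on the plus strand.
Emcn: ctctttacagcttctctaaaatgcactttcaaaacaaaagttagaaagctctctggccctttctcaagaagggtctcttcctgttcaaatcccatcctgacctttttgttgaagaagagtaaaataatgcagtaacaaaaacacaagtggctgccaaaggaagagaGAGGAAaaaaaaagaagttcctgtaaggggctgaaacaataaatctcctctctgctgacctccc
Cxcr4: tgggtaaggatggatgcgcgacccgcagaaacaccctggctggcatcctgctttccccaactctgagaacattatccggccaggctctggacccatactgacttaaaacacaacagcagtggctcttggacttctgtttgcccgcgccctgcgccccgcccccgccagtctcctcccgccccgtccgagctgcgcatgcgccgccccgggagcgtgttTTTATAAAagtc
Itgam: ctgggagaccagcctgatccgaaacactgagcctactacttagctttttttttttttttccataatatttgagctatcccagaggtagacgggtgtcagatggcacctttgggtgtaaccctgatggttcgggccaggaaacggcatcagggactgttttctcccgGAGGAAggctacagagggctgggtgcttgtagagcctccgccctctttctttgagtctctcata
The Cxcr4 window held TATAAA beginning 30 bases before the start, overlapped by a match on the other strand; 11.8% of all 32851 windows have such a match. Emcn and Itgam each held GAGGAA, 84 bases before the start, where 21.3% of all windows have a match; among the 26 windows of the 23 genes, 9 had one, or 34.6%. Of the 3 windows shown, 0 held GGAAGT, another form of ETS site that can overlap GAGGAA, which 17.6% of all windows hold. The same was true of AGATAA, a site of the GATA factors, found in 9.49% of all windows. It was also true of TGTGGT, a RUNX site, found in 13.2%. Of the 5 motifs, those marked in capitals were chosen after the windows had been read, so these matches are a description of letters only.

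Genes that act around these receptors were read from further lists. Of 30 tested genes of integrin activation and the adhesion complex, limma put 1 higher and 0 lower (unadjusted p under 0.05), with a median of 0.06. Over all genes 5.95% were higher and 3.02% lower, so this count does not exceed the background. The gene was Tln1, encoding talin, which binds the tails of beta chains and switches integrins on; it was higher by 0.31, 1.02 and 0.72 (0.68 ± 0.21, unadjusted p 0.0145, adjusted p 0.453 in limma). Of 23 tested ligands and counter-receptors, 1 was higher and 2 lower at the same threshold, counts to be read against the same shares of all genes, with a median of -0.03. Selp, P-selectin, which is also a megakaryocyte marker, was 1.73-fold higher (0.79 ± 0.23). Fn1, fibronectin, the ligand of alpha 4 and alpha 5 beta 1, was 2.57-fold lower (-1.36 ± 0.37, unadjusted p 0.00921, adjusted p 0.414), with pair differences of -1.52, -2.31 and -0.26, and Thbs1, thrombospondin, the ligand of CD47, was 1.98-fold lower, with -1.26, -1.53 and -0.15. Both were thus lowest in pairs 1 and 2, the pairs in which the neutrophil and monocyte markers were lower, and the part of those cells was not tested.

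Pairs 1 and 2 often stood against pair 3. A pattern of lower in pairs 1 and 2 and higher in pair 3 was shown by 9 members, Itga4, Itga7, Itgam, Itgb2, Robo4, Jam2, Jam3, Tek and Cdh2, or 23.1% of the 39, where 11.1% of all genes had it. The reverse pattern was shown by 4, or 10.3% against 11.3%. These patterns were picked out after the values had been seen. For Cdh2 and Jam2 the difference in pair 1 was -0.01 or smaller in size, so their place in it is arbitrary.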

How the data were processed

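RNA of pooled LT-HSC, about 5 ng a sample per the labels' protocols, was amplified and labelled with biotin for 6 arrays. The table deposited by the authors holds log2 expression of 41345 probe sets; the submitters' processing notes name RMA and give neither its version nor a later step. Groups and replicate numbers came from the sample titles. Probe sets with exactly 1 gene symbol in the platform annotation (23521) were kept, and the one with the highest mean over the 6 arrays stood for a gene; 4 of the 40 genes had more than 1. Genes below the 25th percentile of mean value were left out.

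In 100% of the probe sets, same-numbered arrays had a common mean (tolerance 0.001; at most 0.343% under the 5 other pairings), and their deviations from group means correlated at -1.000 in each pair. The fit was therefore blocked on the replicate number: limma 3.58.1 (lmFit, eBayes) in R 4.3.3 (data.table package, version 1.17.8), with 2 residual and 4.537 prior degrees of freedom, two-sided, Benjamini-Hochberg over all 16635 genes. The code was tested on simulated data. Each p and SE rests on the spread between 3 pairs of pools, drawn by eBayes toward the spread of all genes. An SE is thus not a gene's own spread: Tie1 has an SE of 0.17 though the standard deviation of its pair differences was 0.04. The number of arrays limits the precision. Figures used matplotlib 3.10.9 in Python 3.11.15.

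The members and lists were chosen with earlier results of these data known. Array values are printed for members with an unadjusted p under 0.05 or a difference of at least 1.5-fold and for Itga4, Itga5, Itga6, Itgb1, Itgb2, Cxcr4, Cd44, Tek and Angpt1; Itgam and Itgal were added after their values were seen. Listed genes without a single-symbol probe set were not analysed here. Alternatives were the fit without the block, each pair left out, 2 other filters, quantile normalization, median centring, averaged probe sets and an intensity trend.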

Additional observations from a re-analysis of the deposited data

How the results depend on the processing

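The pairing changed the counts most. With no replicate block, limma called 4 members at an adjusted p under 0.05 instead of 0, and an unadjusted p under 0.05 was met by 8 in the higher and 3 in the lower direction, instead of 4 and 1; in that fit 15% of all genes were higher and 9.85% lower at this threshold. With each pair left out in turn, the members called stayed at 0, those higher at an unadjusted p under 0.05 numbered 4 to 5, those lower 1 to 3, and the median of the members was -0.06 to 0.05. The 1 lower member was Itga1 without pair 1 and Itgb5 without pair 2, in place of Emcn; without pair 3 the lower ones were Emcn, Itgam and Itgb2. With an intensity trend 2 were lower, Cxcr4 beside Emcn. Among genes above the 50th percentile, which left 25 members, the median was 0.13; fewer genes enter there. The other settings kept the counts of the members within 1.5 times.

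Signs turned in 16 genes, all with an adjusted p above 0.8 in the fit of all pairs. With a pair left out, the differences ran from -0.21 to 0.19 for Cd44, -0.09 to 0.04 for Cdh2, -0.04 to 0.28 for Itga2, -0.31 to 0.12 for Itga4, -0.19 to 0.12 for Itga7, -0.15 to 0.09 for Itga8, -0.08 to 0.28 for Itga9, -0.02 to 0.14 for Itgad, -0.25 to 0.04 for Itgae, -0.06 to 0.29 for Itgax, -0.09 to 0.21 for Itgb1, -0.72 to 0.03 for Itgb5, -0.34 to 0.02 for Jam2, -0.46 to 0.04 for Jam3, -0.19 to 0.21 for Tek and -0.31 to 0.33 for Vcam1. After quantile normalization Cdh2 and Itga8 were at 0.03 and 0.03, and with centred arrays Vcam1 was at 0.01. The cause was not tested. With 3 pairs, a gene at the median SE of 0.202 reached an unadjusted p of 0.05 at a difference of about 1.4-fold; genes with a smaller SE reached it below that.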
